A study of Mus musculus with 9 samples.

Results

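The Id genes Id1, Id2, Id3 and Id4 and the E-protein genes Tcf3, Tcf4 and Tcf12 were followed in CT26, a mouse colorectal carcinoma cell line. They are 7 of the 53796 genes in the deposited table, matched by symbol. The set was selected on earlier results of these data, namely the higher Id1, Id2 and Id3 values in cells carrying K262Q Pd-l1 than in cells carrying wild-type Pd-l1. Id4 and the E-protein genes were taken with them as family members and binding partners. Values from that comparison are therefore given here as a description, and nothing is read from the number of members called in it. All cells carried a knockout of Pd-l1 (gene symbol Cd274, the ligand of the T-cell receptor PD-1), received a retrovirus and were selected with puromycin as stable polyclonal lines. The virus held a control vector (KO), wild-type mouse Pd-l1 (WT) or the K262Q form, in which glutamine replaces a lysine (K262Q), with 3 samples in each group. The labels do not state whether a line's 3 samples came from separate cultures, so each p-value is set against a spread that may be technical only. The labels name no second transduction of a construct, so differences between lines and between constructs cannot be told apart.

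Id proteins are helix-loop-helix proteins without the basic region that contacts DNA. They bind the E proteins, which are basic helix-loop-helix (bHLH) factors acting through E-box sequences, and hold them in dimers that do not bind DNA. E proteins otherwise pair with themselves or with tissue-restricted bHLH factors to drive differentiation and cell-cycle exit. Id genes are immediate targets of BMP signalling through SMAD proteins, and are widely expressed in proliferating and tumour cells.

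Because Id2 and Id3 differed together, the bases before their start sites were searched for letters that SMAD proteins and bHLH factors are known to bind. RefSeq promoter windows (GRCm38.p6) were matched for 5 of the 7 members, Id2, Id3, Id4, Tcf3 and Tcf12, and not for Id1 and Tcf4. The 250 bases before each start were read on both strands for 3 motifs. The GC-rich SMAD element GGCGCC occurred in 9.59% of all 32851 windows of that length. The short SMAD-binding element CAGAC occurred in 42.2% of them. The E-box, spelled CANNTG, occurred in 66.2%. The stretches below hold the SMAD-type matches of the Id genes (Tcf12 had CAGAC in 1 of its 3 windows, 50 bases before the start), 5′ to 3′ on the gene's strand, with the match in capitals (GTCTG is CAGAC read on the other strand).
Id2, chr12:25096306-25096335, minus strand: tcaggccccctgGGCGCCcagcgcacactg
Id3, chr4:136143643-136143671, plus strand: tgtcctcggcgtCAGACcagcctaaggaa
Id3, chr4:136143742-136143770, plus strand: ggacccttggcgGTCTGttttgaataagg
Id4, chr13:48260956-48260985, plus strand: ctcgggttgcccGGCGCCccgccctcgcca

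The Id2 match began 231 bases before the RefSeq start, those of Id3 167 and 68 bases before it, and that of Id4 148 bases before it. GENCODE release M21 places the start of Id3 further upstream, so both Id3 stretches lie inside an annotated first exon there. Its longest Id2 transcript also begins upstream, and the Id2 stretch lies in an intron of it. The GC-rich element was thus found before Id2, which was detected in every library, and before Id4, which was listed at 0 in every library. E-box letters were found once before Id2 (196 bases) and Tcf3 (54 bases) and in 2 of the 3 windows of Tcf12, and not before Id3 or Id4. A match is a description of letters and not of binding.

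Values are FPKM, fragment counts scaled to transcript length and library depth, as deposited. The steps between low values implied 18.1 to 19.2 M fragments per library (M, mega). Cd274 measured 0.71 ± 0.32 FPKM in KO (SD, n = 3), 36.3 ± 1.45 in WT and 39.6 ± 1.90 in K262Q. This separates KO from both other lines and does not check WT against K262Q, whose values overlapped. All 8 mesenchymal markers examined were above a mean of 1 FPKM, against 3 of 10 epithelial markers (Krt18, Krt20 and Lgals4). Epcam reached at most 0.0546 FPKM and Cdh1 was listed at 0, so 2 defining epithelial transcripts were at or near 0. Of 10 leukocyte markers only Cd14 was above a mean of 1 FPKM, and Ptprc (CD45) reached at most 0.0232 FPKM. The 5 endothelial markers together stayed at or under 0.0602 FPKM. The summed epithelial markers were 40.5 to 42.8 FPKM in K262Q, 44.5 to 46.2 in WT and 48.3 to 50.9 in KO, and the summed leukocyte markers, nearly all Cd14, 56.4 to 58.3, 48.2 to 51.4 and 49.4 to 56.0. The epithelial sum did not overlap between any 2 lines, and the leukocyte sum was higher in K262Q than in both others, narrowly so against KO. The share of all tested genes without such overlap was not counted. Cd14 was higher in K262Q than in WT by 0.22 ± 0.05 (limma adjusted p = 0.0471). That call was lost in 11 of 17 alternatives, among them either scaling of the libraries. Against KO, Cd14 did not pass (limma adjusted p = 0.172). The epithelial sum was nearly all Krt18 and Krt20. Krt18, at 34.9 ± 0.713, 30.8 ± 1.6 and 27.0 ± 0.904 FPKM in KO, WT and K262Q, did not overlap between lines. Krt20, at 12.7 ± 1.71, 12.5 ± 1.93 and 13.1 ± 0.479, overlapped between all of them. The 8 mesenchymal markers had a median difference of -0.19 in K262Q against WT, beside 0.03 over all tested genes. Of these 8, 3 fell and 0 rose, or 37.5% beside 9.38% of all tested genes (3.02% lower). These were Fn1 (fibronectin), at 72.6 ± 4.09 against 108.8 ± 5.04 FPKM, Snai2, a repressor of epithelial genes, at 19.9 ± 1.36 against 44.4 ± 2.93, and the homeobox gene Prrx1, at 38.9 ± 0.561 against 43.3 ± 0.94. Their limma adjusted p was 0.016, 0.0483 and 0.0477, and the calls were lost in 4, 10 and 13 of 17 alternatives, among them without WT replicate 1 or 2 or K262Q replicate 2 or 3. The other 5 were not called. Vim, the most abundant (3126.8 ± 40.6 against 3051.7 ± 195.3 FPKM), differed by 0.04 ± 0.06 and Cdh2 by 0.04 ± 0.04. Col1a2, Zeb1 and Col1a1 differed by -0.13 ± 0.04, -0.23 ± 0.21 and -0.37 ± 0.25. Of these, Col1a2 passed after either scaling of the libraries (lowest limma adjusted p = 0.0275). Against KO, Fn1 and the epithelial marker Krt18 fell in K262Q (limma adjusted p = 0.0373 and 0.036). Those calls were lost in 12 and 10 of 17 alternatives. The part of these markers in the results below was not tested. In bulk RNA, fewer cells with a transcript and less of it per cell cannot be told apart.

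Id1, Id2 and Id3 stood at similar levels in the KO and WT libraries and higher in every K262Q library. Id1 lies on chromosome 2 (152736251 to 152737410, GRCm38). Its KO libraries, replicates 1 to 3, held 12.4, 12.7 and 10.7 FPKM, followed by 11.6, 11.0 and 13.0 in WT and 26.2, 32.2 and 34.7 in K262Q. Its lowest K262Q value was above the highest value of the other 6 libraries. Id2 (chromosome 12, 25093799 to 25097140) measured 17.9, 21.9 and 17.1 FPKM in KO, 14.7, 18.8 and 17.1 in WT and 33.6, 36.4 and 39.0 in K262Q. The K262Q values again lay above all others, while KO and WT overlapped. Id3 (chromosome 4, 136143497 to 136145755) measured 3.32, 2.68 and 1.79 FPKM in KO, 1.93, 2.43 and 2.07 in WT and 9.82, 14.2 and 15.2 in K262Q. Here too the K262Q libraries stood apart from the other 6, which overlapped. The 3 genes were chosen for higher values in K262Q than in WT, so this separation is a description. The share of all tested genes separated in this way was not counted. For each of the 3 genes the lowest K262Q library was replicate 1 and the highest replicate 3. Id4 (chromosome 13, 48261228 to 48266026) was listed at 0 in all 9 libraries.

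**Figure D1:**
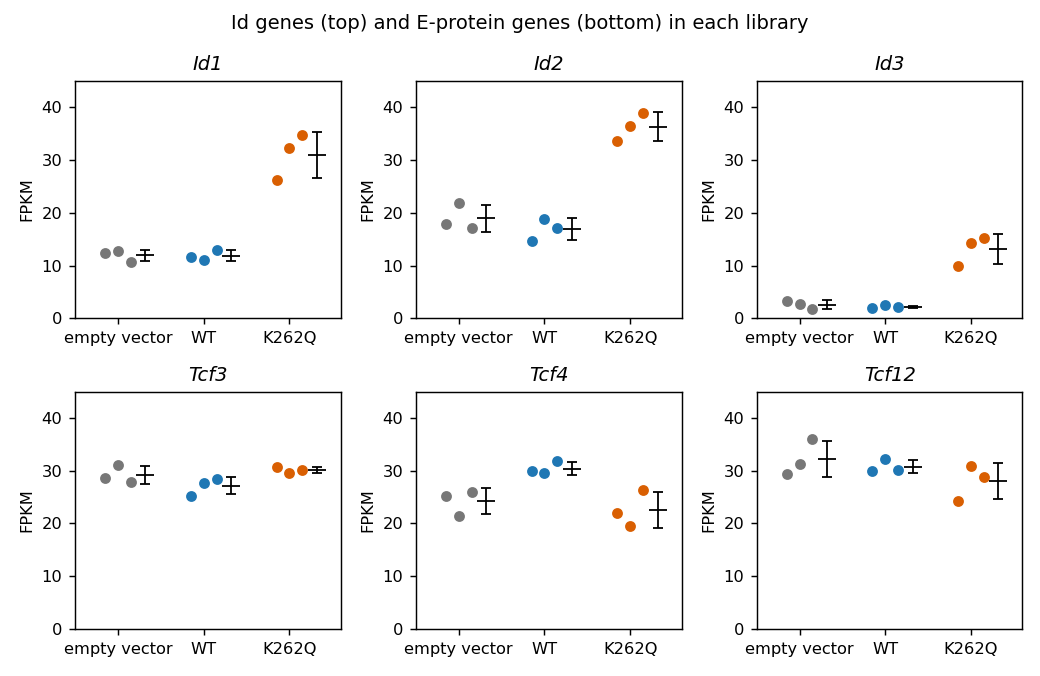
FPKM (y axis, 0 to 45) of the Id genes and E-protein genes in the empty-vector (KO), WT and K262Q lines; each point is 1 library and the bar beside it is the mean ± SD (n = 3). Id1, Id2 and Id3 lie higher in the K262Q libraries than in the other 6, while the E-protein genes stay between 19.6 and 36.1 FPKM throughout.

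In the comparison that selected them, K262Q against WT, the ratio of mean FPKM was 6.1 for Id3, 2.61 for Id1 and 2.15 for Id2. On the log2(FPKM + 1) scale, which understates changes of low genes, the differences were 2.14 ± 0.20 for Id3 (SE of the fit), 1.31 ± 0.11 for Id1 and 1.07 ± 0.12 for Id2. They ranked 104, 253 and 296 of 12212 tested genes by size of rise. Tested genes are those averaging 1 FPKM or more over the 9 libraries, among them 6 of the 7 members, with Id4 left out. The fit placed 3 of these 6 members past an adjusted p of 0.05, all higher in K262Q, where 9.38% of all tested genes passed, 6.35% higher and 3.02% lower. Nothing is read from that count, since this contrast chose the genes. Id3 was the least abundant of the 3. Its lowest library, KO replicate 3, held about 43 fragments for a transcript of 1278 nt, a counting SD of 15.3%, beside a CV of 29.7% between KO libraries.

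K262Q against KO asks whether the Id levels also differed from cells without Pd-l1. Id3 was higher by 1.97 ± 0.20 on the log2(FPKM + 1) scale (13.1 ± 2.87 against 2.6 ± 0.771 FPKM, SD, n = 3; limma, Benjamini-Hochberg adjusted p = 0.0152). Id1 was higher by 1.30 ± 0.11 (31.0 ± 4.37 against 11.9 ± 1.08 FPKM, limma adjusted p = 0.00902). Id2 was higher by 0.91 ± 0.12 (36.3 ± 2.71 against 19.0 ± 2.58 FPKM, limma adjusted p = 0.0292). Thus 3 of the 6 tested members passed, where 1.26% of all tested genes passed, 0.721% higher and 0.54% lower. These tests share the K262Q libraries with the comparison that selected the genes and are not independent of it. With only the KO and K262Q libraries in the fit the adjusted p was 0.0615 for Id1, 0.0949 for Id2 and 0.0949 for Id3. Leaving out 1 library ended the call of Id2 in 6 of 9 fits (without KO replicate 1 or 3, WT replicate 3 or any K262Q replicate, adjusted p up to 0.104) and of Id3 in 2 (without K262Q replicate 2 or 3, up to 0.0613), and of Id1 in 0.

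WT against KO asks whether these genes differed between the line given wild-type Pd-l1 and the control-vector line. The difference was -0.01 ± 0.11 for Id1, -0.16 ± 0.12 for Id2 and -0.17 ± 0.20 for Id3 on the log2(FPKM + 1) scale, with limma adjusted p of 1, 0.885 and 0.933. None of the 6 tested members passed, where 0.0819% of all tested genes (10 genes) did. Of the 12212 tested genes, 686 had an unadjusted limma p under 0.05, a threshold that a share of 0.05 passes if no gene differs. The same count was 2681 in K262Q against KO and 3402 in K262Q against WT. Ratios of mean FPKM were 0.995 for Id1, 0.888 for Id2 and 0.826 for Id3. All 3 Id genes overlapped between WT and KO libraries.

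The E-protein genes were expressed at 19.6 to 36.1 FPKM in every library, and none of them passed the threshold against KO. Tcf3 (chromosome 10, 80409514 to 80433647) encodes E12 and E47, Tcf12 (chromosome 9, 71842688 to 72111871) encodes HEB, and Tcf4 (chromosome 18, 69343356 to 69689079) encodes E2-2. The gene called Tcf4 here is not the Wnt effector sometimes given that name, whose row is Tcf7l2 (4.68 ± 0.716, 3.92 ± 0.594 and 4.46 ± 0.329 FPKM in KO, WT and K262Q). The annotation lists 14 transcripts of Tcf3, 62 of Tcf4 and 21 of Tcf12, and the table gives 1 value per gene, so isoforms such as E12 and E47 were not told apart.

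Tcf3 stood at 28.6, 31.1 and 27.9 FPKM in the KO libraries, 25.3, 27.7 and 28.4 in WT and 30.7, 29.6 and 30.1 in K262Q. The K262Q values lay above the WT values and within the KO range. Tcf12 measured 29.3, 31.3 and 36.1 FPKM in KO, 29.9, 32.2 and 30.2 in WT and 24.3, 30.9 and 28.9 in K262Q, and all 3 groups overlapped. Against KO, Tcf3 differed by 0.04 ± 0.06 in K262Q (limma adjusted p = 0.697) and by -0.10 ± 0.06 in WT (adjusted p = 0.885). The same differences for Tcf12 were -0.20 ± 0.10 (adjusted p = 0.311) and -0.06 ± 0.10 (adjusted p = 0.96).

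Tcf4 was the E-protein gene with the widest spread between groups. It measured 25.3, 21.5 and 26.0 FPKM in KO, 30, 29.5 and 31.8 in WT and 21.9, 19.6 and 26.3 in K262Q. The WT libraries lay above the other 6, and KO and K262Q overlapped. WT exceeded KO by 0.32 ± 0.11 on the log2(FPKM + 1) scale (30.4 ± 1.21 against 24.3 ± 2.39 FPKM, SD, n = 3; limma adjusted p = 0.854), and K262Q lay -0.10 ± 0.11 from KO (adjusted p = 0.631). K262Q lay -0.42 ± 0.11 from WT, with a ratio of mean FPKM, WT over K262Q, of 1.35. This difference did not pass (limma adjusted p = 0.055), but it passed in 5 of 17 alternatives (lowest adjusted p = 0.0387). These were a mean of at least 5 FPKM, either scaling of the libraries, the replicate block and leaving out KO replicate 2.

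**Figure D2:**
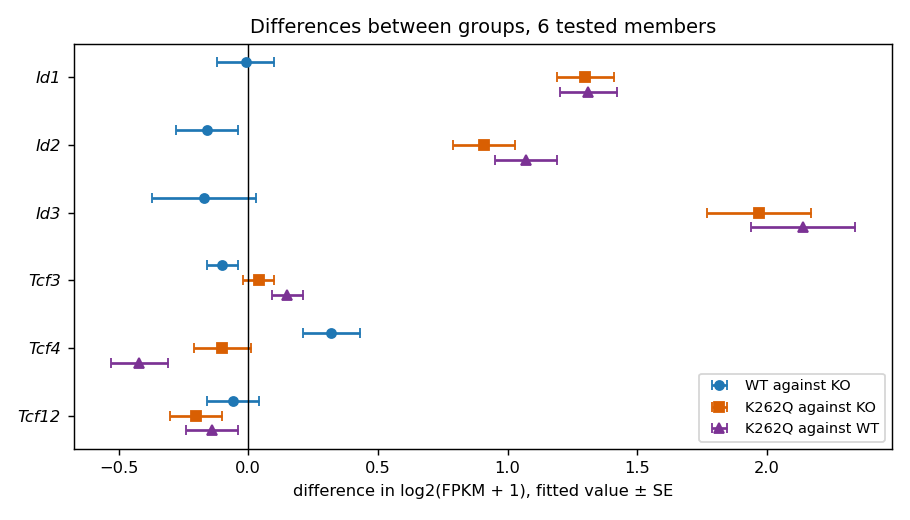
Fitted difference in log2(FPKM + 1) (x axis) ± SE for the 6 tested members in the 3 comparisons, KO being the empty-vector line. Id1, Id2 and Id3 lie between 0.91 and 2.14 in both comparisons with K262Q, and the E-protein genes between -0.42 and 0.32 in all 3.

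FPKM are scaled to transcript length, so levels of different genes were set side by side. The order depends on the transcript lengths assigned to each gene, which are not given. Tcf4, for one, has 62 annotated transcripts of 332 to 8577 nt. In KO the order was Tcf12, Tcf3, Tcf4, Id2, Id1, Id3, in which Tcf12 overlapped Tcf3 and Tcf4 overlapped Id2, and the other neighbours did not overlap. In WT it was Tcf12, Tcf4, Tcf3, Id2, Id1, Id3, in which only Tcf12 and Tcf4 overlapped as neighbours. In K262Q, Id2 and Id1 came first and overlapped, Id1, Tcf3 and Tcf12 overlapped, Tcf12 and Tcf4 overlapped, and Id3 lay below Tcf4. The 2 most abundant Id transcripts therefore moved from below all 3 E-protein genes in WT to the top of the order in K262Q.

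Summed over the family, Id transcript was 33.6, 37.4 and 29.6 FPKM in KO replicates 1, 2 and 3, 28.3, 32.2 and 32.1 in WT and 69.6, 82.8 and 88.9 in K262Q. The 3 E-protein genes summed to 83.3, 83.9 and 90.0 FPKM in KO, 85.2, 89.4 and 90.3 in WT and 76.9, 80.1 and 85.3 in K262Q. The ratio of Id to E-protein transcript was 0.393 ± 0.059 in KO, 0.349 ± 0.0152 in WT and 0.993 ± 0.0768 in K262Q (SD, n = 3). The ratio is a description of members chosen by their values and was not tested, and protein amounts were not measured. Its level also depends on the transcript lengths assigned. The make-up of the Id total differed as well: Id3 was 16.1 ± 1.8% of it in K262Q, 6.94 ± 0.56% in WT and 7.7 ± 2.0% in KO, with no overlap of K262Q with the others. Id2 was 45.4 ± 2.5% in K262Q, 54.5 ± 3.4% in WT and 56.6 ± 2.9% in KO. Id1 kept a share of 35.7% to 38.6% in the group means.

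**Figure D3:**
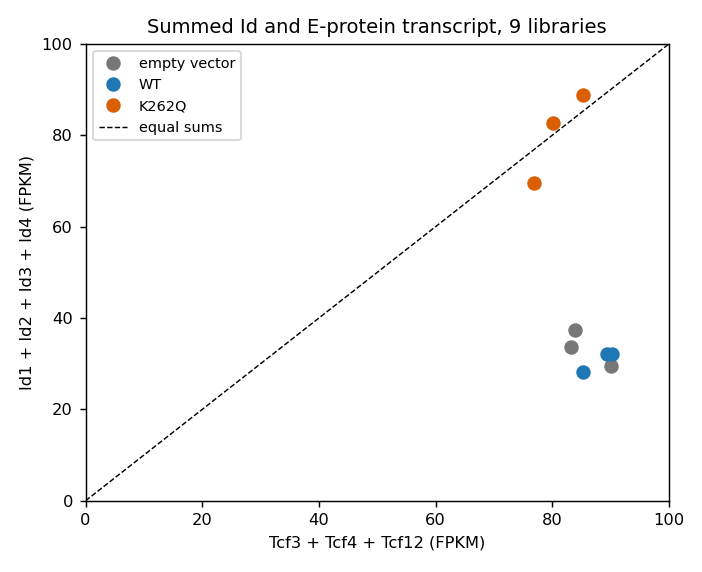
Summed FPKM of Id1 to Id4 (y axis) against summed FPKM of Tcf3, Tcf4 and Tcf12 (x axis), 1 point per library, with a dashed line where both sums are equal. The K262Q libraries lie near that line at 69.6 to 88.9 FPKM of Id transcript, and the other 6 lie below it at 28.3 to 37.4.

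Besides one another, E proteins pair with tissue-restricted bHLH factors. Of 45 such genes, 2 were above a mean of 1 FPKM, Twist1 and Twist2, both regulators of mesenchymal cells. Twist2 measured 50.5, 51.6 and 50.7 FPKM in KO, 47.5, 48.6 and 51.5 in WT and 66.9, 67.8 and 67.7 in K262Q. The K262Q libraries stood apart from the other 6. Twist2 was higher by 0.45 ± 0.04 than in WT (limma adjusted p = 0.00522) and by 0.40 ± 0.04 than in KO (adjusted p = 0.0145). Against WT the call held in all 17 alternatives. Against KO it was lost in 6 of 17, among them without KO replicate 1 or any K262Q replicate, and with only the 2 groups compared. Twist1, at 55.2 ± 1.47, 54.3 ± 3.51 and 60.2 ± 1.73 FPKM in KO, WT and K262Q, did not pass (0.15 ± 0.05 against WT, limma adjusted p = 0.119).

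Other helix-loop-helix genes gave no common direction. Of 5 tested genes of the Hes, Hey and Bhlhe repressor group, 1 fell and 0 rose in K262Q against WT, where 9.38% of all tested genes passed, and the median difference was -0.12, beside 0.03 over all tested genes. The gene that fell was Bhlhe40, a clock- and hypoxia-linked repressor, at 22, 23.9 and 21.2 FPKM in K262Q against 27.4, 28.5 and 29.0 in WT (-0.33 ± 0.06, limma adjusted p = 0.029). Its KO values were 20.7, 21.5 and 18.6 FPKM, so WT was the group that stood above the other 6 libraries. Hes1, the Notch-induced repressor, differed by 0.17 ± 0.13 (adjusted p = 0.426). Bhlhe41, Hes6 and Hes7 differed by -0.12 ± 0.19, 0.06 ± 0.19 and -0.22 ± 0.12 (limma adjusted p = 0.728, 0.87 and 0.27). Hes7 was low throughout, at 2.03 ± 0.148, 1.74 ± 0.239 and 1.35 ± 0.0302 FPKM in KO, WT and K262Q, and its K262Q values did not overlap the others. Of 22 other bHLH genes tested, 1 rose and 2 fell, or 13.6% beside the same 9.38%, with a median of -0.05. Mxd3, a dimer partner of Max, rose by 0.44 ± 0.09 (limma adjusted p = 0.029). Mitf (-0.41 ± 0.10, adjusted p = 0.0471) and Tfe3 (-0.44 ± 0.11, adjusted p = 0.0496), related regulators of lysosomal genes, fell. Bhlhe40 lost its call in 7 of 17 alternatives, Mxd3 in 6 of 17, Tfe3 in 11 of 17 and Mitf in 11 of 16, in each case with no filter on low values and without any 1 WT library, among others. In the other comparisons 0 genes of these groups passed, though Bhlhe40 did in WT against KO after upper-quartile scaling (0.46 ± 0.06 and adjusted p = 0.122 without scaling, 0.0325 with it). The most abundant members, Max (154.3 ± 28.1 FPKM in K262Q), Srebf1, Srebf2, Myc and Hif1a, did not pass in any of the 3 comparisons. Among the alternatives, Srebf1 passed against KO without KO replicate 2 and after either scaling of the libraries (lowest adjusted p = 0.0411). Myc passed against KO without KO replicate 2 (0.0403), and against WT without that library or with only the 2 groups compared (lowest 0.0207).

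BMP signalling components were read as a known input to Id transcription, and other BMP-SMAD targets as further genes that this pathway acts on. Of 24 BMP-SMAD targets other than the Id genes, 8 were tested (Smad7, Msx1, Runx2, Grem1, Gata2, Gata3, Klf10 and Junb) and 0 passed in any of the 3 comparisons. The median difference of the 8 in K262Q against WT was -0.18. One of the 31 pathway genes listed, Hjv, was not matched. Of 20 tested ligands, receptors, SMADs and antagonists, 0 rose and 2 fell, both against WT and against KO. That is 10% of the list, beside 9.38% and 1.26% of all tested genes. These were Skil, a repressor of SMAD activity, and Fstl3, a secreted antagonist of activins. Skil measured 6.49, 7.29 and 7.13 FPKM in K262Q, 10.8, 9.94 and 10.6 in WT and 10.0, 9.96 and 11.0 in KO, with K262Q below the other 6 libraries (-0.52 ± 0.06 against WT, limma adjusted p = 0.016; -0.51 ± 0.06 against KO, adjusted p = 0.0239). Fstl3 measured 14.7, 14.8 and 14.8 FPKM in K262Q and 17.0 to 18.7 in the other libraries (-0.26 ± 0.05 against WT, limma adjusted p = 0.0246; -0.27 ± 0.05 against KO, adjusted p = 0.0489). Against WT, the call of Skil was lost without WT replicate 1 or K262Q replicate 3 and that of Fstl3 without any 1 WT or K262Q library. In all, against WT they were lost in 2 and 7 of 17 alternatives, and against KO in 8 and 12, among them the fit of only the 2 groups compared.

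Among 18 tested regulators of Id transcription or Id protein stability, 1 rose and 2 fell in K262Q against WT, or 16.7% beside 9.38% of all tested genes, with a median of -0.03. Fzr1 activates the anaphase-promoting complex, which marks some but not all Id proteins for degradation. Fzr1 measured 27.4, 29.8 and 28.8 FPKM in K262Q, 20.2, 20.3 and 20.4 in WT and 22.6 in each KO library. It was higher by 0.48 ± 0.04 than in WT (limma adjusted p = 0.00522), a call that held in all 17 alternatives, and by 0.33 ± 0.04 than in KO (adjusted p = 0.0235), a call lost in 8 of 17. Foxo3, a forkhead factor, fell by 0.27 ± 0.06 against WT (limma adjusted p = 0.0321), a call lost in 8 of 16 alternatives, among them without any 1 WT or K262Q library. Egr1, an immediate early factor, measured 18.1, 15.8 and 15.4 FPKM in K262Q, 63.1, 52.5 and 59.0 in WT and 43.6, 16.1 and 60.7 in KO. KO replicate 2 lay at the K262Q level, apart from the other KO libraries. Against WT Egr1 fell by 1.76 ± 0.41 (limma adjusted p = 0.041), a call lost in 10 of 17 alternatives, among them without KO replicate 1 or any 1 WT or K262Q replicate, with no filter and with no trend. Against KO it did not pass (adjusted p = 0.186), except without KO replicate 2 (0.00667).

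Known targets of E proteins were mostly unexpressed or not called. Of 25 genes, many of them lymphoid, 8 were tested, and in K262Q against WT 1 rose and 1 fell, or 2 of 8 where 9.38% of all tested genes passed, with a median of -0.03. Cdkn1b, the cyclin-dependent kinase inhibitor p27, measured 16.6, 16.6 and 15.6 FPKM in K262Q, 20.3, 21.3 and 21.4 in WT and 20.3, 21.3 and 20.3 in KO. It fell by 0.35 ± 0.04 against WT (limma adjusted p = 0.016) and by 0.32 ± 0.04 against KO (adjusted p = 0.0361). Socs1, an inhibitor of cytokine signalling, rose by 0.43 ± 0.07 against WT (limma adjusted p = 0.0193). Cdkn1a, the inhibitor p21 and the target most often studied with E proteins, differed by -0.03 ± 0.06 from WT (limma adjusted p = 0.754) and by 0.09 ± 0.06 from KO (adjusted p = 0.41). Cdkn1b lost its call in 3 of 17 alternatives against WT (without WT replicate 2 or K262Q replicate 2 or 3) and in 11 against KO. Socs1 lost it in 6 of 16, among them without WT replicate 1 or 2 or any K262Q replicate.

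**Figure D4:**
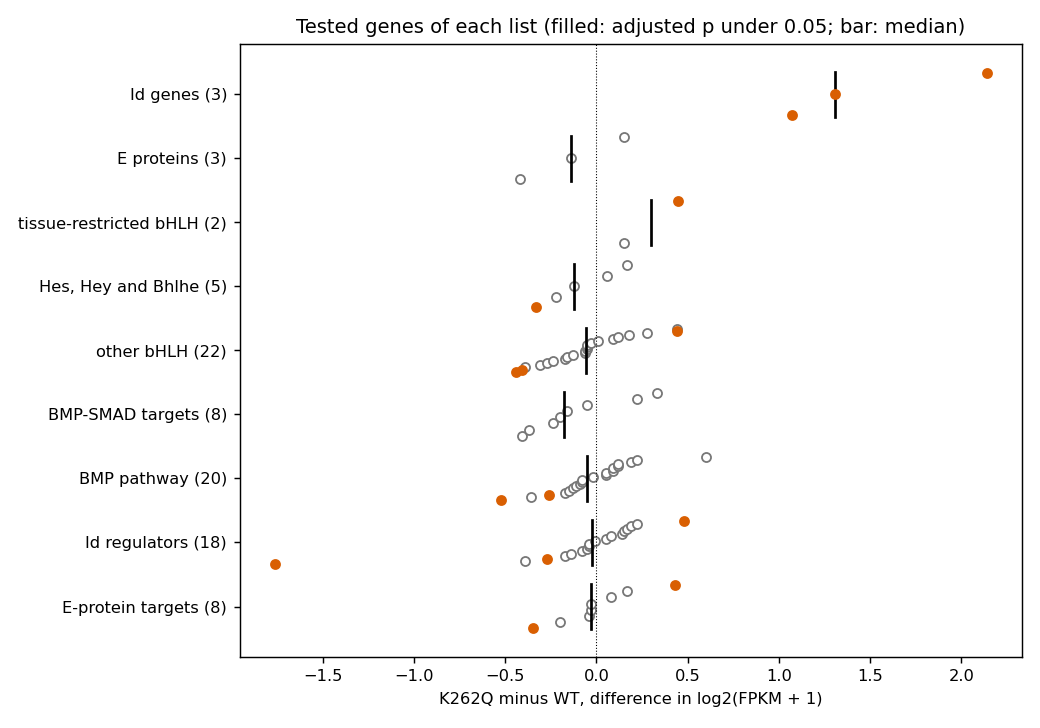
Difference in log2(FPKM + 1) between K262Q and WT (x axis) for each tested gene of each list, with the number tested in brackets; filled points passed an adjusted p of 0.05 and the bar is the list median; the Id genes were chosen by this difference. The Id genes lie at 1.07 to 2.14, while the medians of the bHLH, BMP, regulator and target lists lie between -0.18 and 0.30.

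The genes whose levels followed the Id genes most closely over the 9 libraries were ranked by Pearson r on the log2(FPKM + 1) scale among 8260 other genes averaging 5 FPKM or more. For the Id genes the K262Q libraries stood apart from the rest, so r mostly restates that split and is given as a description. For Id1 the 5 highest were Nomo1 (r = 0.988), Wdr55 (0.987), Id3 (0.986), Slc35a4 (0.985) and Prrx2 (0.981). For Id2 they were Prrx2 (0.993), Nolc1 (0.992), Hnrnpa0 (0.990), Smo (0.989) and Mapre2 (0.988), and for Id3 Pigt (0.992), Id1 (0.986), Fam149a (0.985), Ifrd2 (0.984) and Prrx2 (0.982). Prrx2, a homeobox gene, was among the 5 of all 3 Id genes. It measured 116.5, 126.2 and 129.9 FPKM in K262Q, 70.6, 75.5 and 76.4 in WT and 78.9, 85.9 and 77 in KO. As for the Id genes, its lowest K262Q library was replicate 1 and its highest replicate 3.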

How the data were processed

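Total RNA of 9 CT26 samples was sequenced. Per the submitters' processing notes the authors used STAR 2.5.4a, Cufflinks 2.2.1 and Cuffdiff with mm10, and deposited 1 FPKM value per gene and sample. The annotation release, filters and strand setting are not given in the sources used here. Columns were matched to samples by title and alias.

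The 12212 genes averaging 1 FPKM or more were fitted on the log2(FPKM + 1) scale by limma 3.58.1 (R 4.3.3, trended eBayes), with 3 groups in 1 fit, two-sided tests, Benjamini-Hochberg adjustment over all tested genes and a threshold of 0.05. The method was tested on simulated data. An exact permutation test of 3 against 3 samples cannot give a p under 0.1. Members and gene lists were chosen with earlier results of these data known. Named genes are all members, up to 4 called genes per list and comparison by adjusted p, the 5 most abundant of each bHLH list, the 5 highest r for each Id gene (unnamed gene models, ribosomal protein and small RNA genes left out), Cd274, and markers averaging 1 FPKM. Cdkn1a, Tcf7l2, Epcam, Cdh1, Ptprc and the 8 tested BMP-SMAD targets fall outside this rule and were named after their values were seen.

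Depth was taken as the fragment number at which low FPKM of genes with 1 transcript of 2000 to 6000 nt in GENCODE M21 become whole fragments; 83.6% to 88.6% of low values lay within 0.1 of a whole number, where evenly spread values would give 20%. Fragment numbers cover counting error only and ignore effective length. Python 3.11.15, pandas 2.3.3, numpy 2.4.6 and matplotlib 3.10.9 were used. Alternatives are those of the closing section. Reads were not analysed here.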

Additional observations from a re-analysis of the deposited data

How the results depend on the processing

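With 1 library left out, Id1, Id2 and Id3 exceeded WT in K262Q by 1.22 to 1.42, 0.98 to 1.14 and 2.03 to 2.32 (log2), and KO by 1.22 to 1.42, 0.84 to 1.01 and 1.80 to 2.15. A pseudocount of 0.1 gave 2.53 for Id3 against WT, and upper-quartile scaling 0.08 for Tcf3. Near 0, WT against KO changed sign for Id1 (0.02 after upper-quartile or TMM scaling, -0.08 to 0.04 without 1 library) and Tcf12 (-0.13 to 0.02 without 1 library). The Id to E-protein ratio was 0.969 to 1.04 in K262Q, 0.344 to 0.358 in WT and 0.366 to 0.424 in KO without 1 library; as a difference of mean log2(FPKM + 1) over Id1, Id2 and Id3 it was -0.12 ± 0.14, -1.76 ± 0.046 and -1.60 ± 0.24.

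Counts over all genes moved more. WT against KO had 10 genes, 18 with no filter and 9 to 18 without 1 library (18 without WT replicate 3, 16 without KO replicate 2). K262Q against KO had 154, 55 with no filter, 245 after upper-quartile and 297 after TMM scaling, 9 with only the 2 groups compared, 37 without the trend, 1093 without KO replicate 2 and 11 to 40 without any other 1 library. K262Q against WT had 1145, 353 with no filter and 33 (K262Q replicate 2) to 1580 (KO replicate 2) without 1 library; it was 703 without KO replicate 1, 49, 43 and 341 without WT replicates 1, 2 and 3, and 276 and 42 without K262Q replicates 1 and 3. The share higher in K262Q was 67.8% against WT, 41.2% after upper-quartile and 57.1% after TMM scaling, and 57.1%, 43.3% and 59.3% against KO. The cause was not tested.

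Replicate numbers were not found to pair the samples: deviations from the group means, compared between groups, had r of -0.036 to 0.078 for equal numbers and -0.074 to 0.051 for unequal ones. With the replicate block, 6 genes were called in WT against KO and 5 in K262Q against KO, where adjusted p was 0.0682 for Id1 and Id2 and 0.0805 for Id3. The block also ended the calls of Twist2, Skil, Fstl3, Fzr1, Cdkn1b, Fn1 and Krt18 against KO. Against WT it ended those of Mitf, Tfe3, Fstl3, Foxo3, Egr1, Snai2 and Prrx1.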
